A study of Caenorhabditis elegans with 10 samples.

Results

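The fbxb and fbxc genes of Caenorhabditis elegans encode F-box proteins of the B and C families. They were taken here as every gene named by a probe set with 1 annotated symbol beginning fbxb- or fbxc- and a number, with the brightest probe set standing for genes that had more than 1. This gave 139 genes of the 17118 genes with such a probe set, 95 of them fbxb and 44 fbxc. The rule used names and mean brightness and no measured change, but it was set with earlier results of these data known. A RefSeq table lists 113 fbxb and 56 fbxc genes, so 30 of these genes are not analysed here. A further 6 probe sets name several genes at once and were left out.

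F-box proteins are the substrate-recognising parts of SCF ubiquitin ligases. The F-box near one end of the protein binds a Skp1-related adaptor (skr genes in the worm), which joins it to the cullin CUL-1 and the RING protein RBX-1, while the remainder of the protein picks the target to be marked with ubiquitin. The worm genome has expanded these families greatly by local duplication, and the targets of most individual fbxb and fbxc proteins are not known.

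The arrays hold total RNA of whole animals in 4 groups, from a comparison of feeding and fasting in worms mutant for either mek-1 or mlk-1. In a JNK-type cascade MLK-1 acts on MEK-1, so all 4 groups carry a lesion in that cascade. No allele is named in the labels, and no wild-type group enters the comparisons here. Synchronised animals were moved on adult day 2 to plates with OP50-1 bacteria (fed) or with no food (fasted) and collected 2 days later, on adult day 4. Each mek-1 group had 3 arrays and each mlk-1 group 2, and their number limits the precision. Nothing in the labels ties replicates to separate cultures, so p-values measure only the spread between these samples, which may be technical.

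Median intensity per array ran from 70.5 to 74.9. The mek-1 probe set read 66.5 to 139 in the 6 mek-1 arrays and 1137 to 1387 in the 4 mlk-1 arrays, whereas mlk-1 (128 to 232 over all arrays) did not part the strains. Both mek-1 arrays numbered 3 lay apart from the others on the second principal component (-30.1 and -30.9, against -10.5 to 23.8), so counts are also given without them. In whole animals, a change in how many cells of a type are present and a change in RNA per cell cannot be told apart.

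Levels below are deposited intensities. Changes are differences of log2(intensity + 16), with limma's standard error, and a gene is called past the threshold at an adjusted p under 0.05 over all 22548 probe sets. The constant keeps dim probe sets from dominating and understates their fold changes. Most family genes were dim. The mean log2 level over the 10 arrays had a median of 5.81 in fbxb and 6.23 in fbxc against 6.49 over all probe sets, on a scale whose floor is 5. In all, 85 of 95 fbxb genes and 26 of 44 fbxc genes lay below the median of all probe sets. Intensities of different probe sets are not compared as amounts of RNA.

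**Figure D1:**
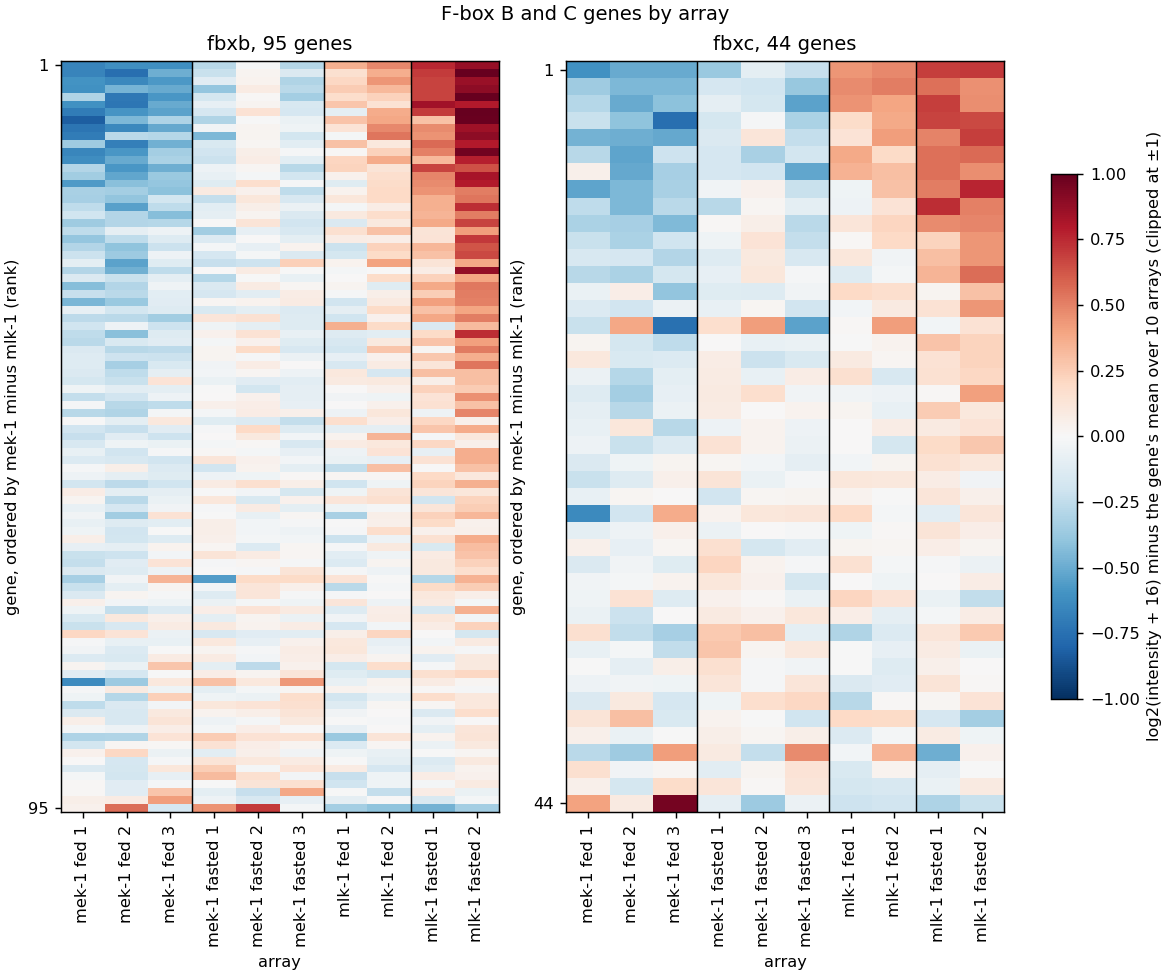
Heat map of every fbxb (95) and fbxc (44) gene in the 10 arrays, as log2(intensity + 16) minus the gene's own mean, with genes (rows) ordered by the mek-1 minus mlk-1 difference and arrays (columns) grouped by strain and food. The upper rows run from blue in mek-1 fed arrays to red in mlk-1 fasted arrays, and many lower rows are paler.

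With fasting, fbxb genes moved up. Of 95 fbxb genes, 25 rose and 0 fell in the mean of the effects in both strains (26.3% higher, where 4.1% of all probe sets were higher and 3.8% lower). Their changes had a median of 0.21 and ran from -0.22 to 0.64, and 82 of 95 lay above 0. Over all probe sets the median was 0.04. Among the fbxc genes, 6 of 44 rose and 0 fell (13.6%), with a median of 0.11 and a range from -0.36 to 0.44. At an unadjusted p under 0.05, 50 fbxb genes were higher and 1 lower, and 16 fbxc genes were higher and 3 lower. Of all 22548 probe sets, 3203 were higher and 1807 lower at that level. The labels number the replicates but state no pairing, and a pairing of fed with fasted samples by number was inferred from these same arrays. With each strain's replicate number as a block, 42 fbxb and 11 fbxc genes were higher (background 12.6%). With that block 2 fbxc genes, fbxc-42 and fbxc-58, were lower (background 7.36%). With the number alone as the block, 38 fbxb and 11 fbxc genes were higher and 2 fbxc genes lower (background 12.4% and 7.2%).

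The rise was largest in fbxb-40 and clearest against the spread in fbxb-13. The intensity of fbxb-13 was 56.7, 51 and 62.1 in fed and 88.7, 96.7 and 82.9 in fasted mek-1 animals. In mlk-1 animals it was 118 and 106 fed against 182 and 176 fasted. Neither strain's groups overlapped, and the mean change was 0.57 ± 0.07 (SE, adjusted p = 0.00153), past the threshold in all 22 alternatives tried. It was also the only family gene past the threshold in each strain taken alone, at 0.54 ± 0.09 in mek-1 (adjusted p = 0.00967) and 0.60 ± 0.11 in mlk-1 (adjusted p = 0.0311), although the mlk-1 call was lost in 8 of 23 alternatives, among them leaving out any 1 mlk-1 array (adjusted p from 0.0606 to 0.210).

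For fbxb-40, the mek-1 arrays read 34.8, 38.8 and 41.1 fed and 57.5, 75.1 and 57.7 fasted. The mlk-1 arrays read 61.6 and 90.9 fed and 118 and 154 fasted. All fasted arrays were above the fed arrays of the same strain, and the change was 0.64 ± 0.12 (adjusted p = 0.0126). Without mlk-1 fasted 2, the highest array, the adjusted p was 0.0653. Its probe set is of the kind that can hybridise to several transcripts, as 16 of those of the 139 genes are. Those of fbxb-15, fbxb-41 and fbxc-29 are also of that kind.

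The fbxb-1 probe set read 46.5, 42.8 and 54.4 in fed and 68.9, 85.2 and 73.6 in fasted mek-1 animals. In mlk-1 animals it read 94.4 and 111 fed and 145 and 186 fasted. The groups were again separate in both strains, with a mean change of 0.56 ± 0.09 (adjusted p = 0.00858) that stayed past the threshold in all 22 alternatives. By size the next were fbxb-24 (0.54 ± 0.11), fbxb-63 (0.53 ± 0.10), fbxb-26 (0.51 ± 0.11), fbxb-18 (0.48 ± 0.10), fbxb-3 (0.46 ± 0.08) and fbxb-15 (0.46 ± 0.09), with adjusted p from 0.0123 to 0.0257. Below them came fbxb-84 (0.44 ± 0.11), fbxb-35 (0.43 ± 0.08) and fbxb-90 (0.43 ± 0.08). Of the 12 largest rises, those of fbxb-84 (adjusted p = 0.0437), fbxb-26, fbxb-18 and fbxb-24 lost their calls in 8, 5, 4 and 3 of 22 alternatives, those of fbxb-15, fbxb-35 and fbxb-90 in 2 and those of fbxb-40, fbxb-63 and fbxb-3 in 1. The other 13 fbxb genes that rose did so by 0.25 to 0.43.

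**Figure D2:**
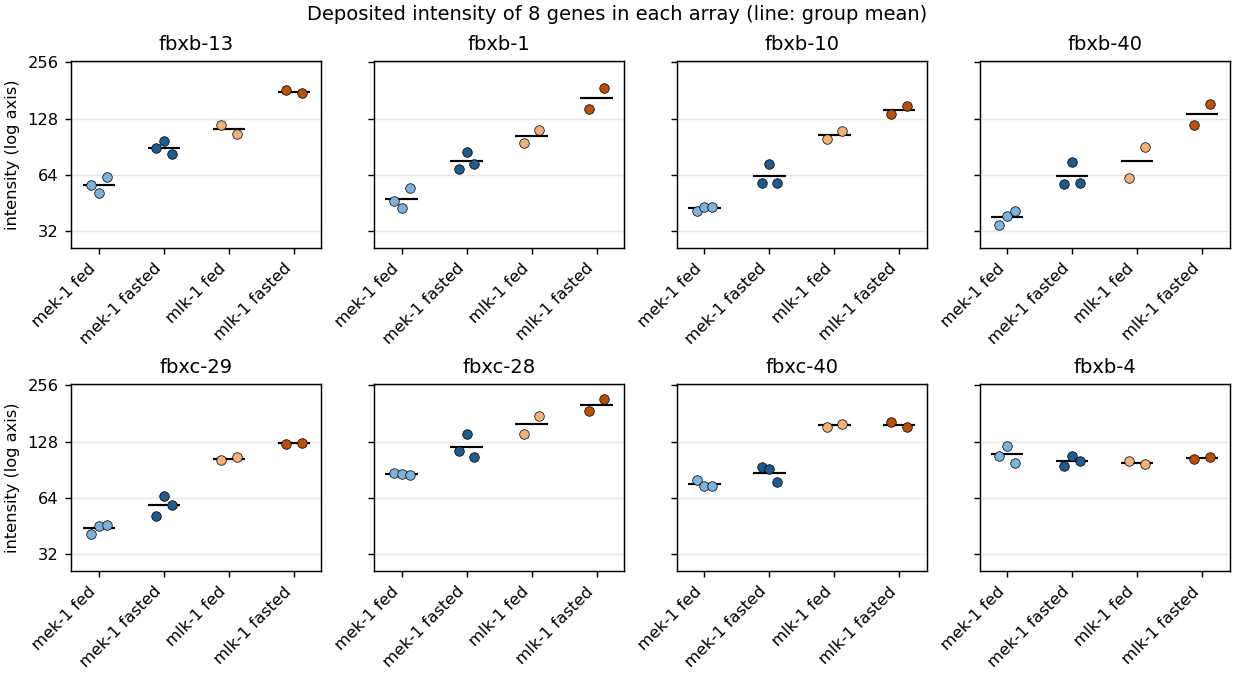
Deposited intensity (log axis) of 8 genes in each of the 10 arrays, with points for arrays and lines for group means over 3 (mek-1) or 2 (mlk-1) arrays. In 7 of the panels the highest array is an mlk-1 array, with fbxb-13 going from 51 in a fed mek-1 array to 182 in a fasted mlk-1 array, whereas fbxb-4 stays between 95.4 and 122.

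In the fbxc family the largest rise was that of fbxc-18, which read 38.3, 41.1 and 46.3 in fed and 60.1, 64.6 and 50.8 in fasted mek-1 arrays. In mlk-1 it read 59.7 and 79.5 fed and 95.2 and 117 fasted. No fed array reached a fasted array of its strain, and the mean change was 0.44 ± 0.10 (adjusted p = 0.0261). The clearest was fbxc-7, at 0.39 ± 0.07 (adjusted p = 0.0115). Its arrays read 83.7, 81.0 and 90.7 fed and 97.9, 115 and 104 fasted in mek-1, and 94.5 and 103 fed and 137 and 162 fasted in mlk-1. The others that rose were fbxc-25 (0.39 ± 0.09), fbxc-28 (0.36 ± 0.09), fbxc-39 (0.30 ± 0.08) and fbxc-29 (0.27 ± 0.07). All 6 calls depended on single arrays: fbxc-7 lost its call without mlk-1 fasted 2 alone (adjusted p = 0.0590), and the others were lost in 5 to 12 alternatives each.

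Of the 4 brightest fbxb genes, fbxb-13, fbxb-15 and fbxb-41 (0.42 ± 0.08, adjusted p = 0.0164) rose and fbxb-4 stood at -0.01 ± 0.07 (adjusted p = 0.938). None of the 4 brightest fbxc genes, fbxc-50, fbxc-58, fbxc-47 and fbxc-52, was past the threshold. For fbxc-50 the 10 arrays ran from 669 to 925 and the mean change was -0.16 ± 0.07 (adjusted p = 0.219). That probe set is of the kind that can hybridise to several transcripts. A dimmer probe set of fbxc-50, not of that kind, changed by 0.32 ± 0.06 (adjusted p = 0.0111), so the gene's own probe sets differ in sign. In mek-1 alone the dimmer one changed by 0.53 ± 0.07 (adjusted p = 0.0042). The fbxc-58 probe set read 670, 537 and 992 in fed and 473, 389 and 484 in fasted mek-1 arrays but 434 and 440 fed and 404 and 431 fasted in mlk-1 arrays. Its change was -0.36 ± 0.15 (adjusted p = 0.207, and 0.0318 with the strain and number block). The changes of fbxc-47 (0.20 ± 0.09, adjusted p = 0.243) and fbxc-52 (0.16 ± 0.07, adjusted p = 0.190) lay above the fbxc median of 0.11. At the low end, fbxc-42 stood at -0.30 ± 0.10 (adjusted p = 0.101, and 0.0167 with that block), fbxb-93 at -0.22 ± 0.07, fbxb-79 at -0.16 ± 0.08 and fbxb-114 at -0.08 ± 0.07.

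Taken by array rather than by test, all fasted arrays lay above all fed arrays of the same strain for 30 fbxb and 9 fbxc genes, 39 of 139, where 7.48% of all probe sets did so. The reverse order held for 2 genes, fbxb-93 and fbxc-58, against 4.93% of all probe sets. In mek-1 alone, 5 family genes passed the threshold, all fbxb and all higher: fbxb-1, fbxb-3, fbxb-10, fbxb-13 and fbxb-18 (background 1.31% higher and 3.23% lower). That count was 1 without mek-1 fed 1, mek-1 fasted 1 or mek-1 fasted 2, 2 without mek-1 fed 2 and 3 without either mlk-1 fasted array. In mlk-1 alone, with 2 arrays a side, fbxb-13 passed (background 0.519% higher and 0.852% lower). With the strain and number block these counts were 23 higher and 1 lower in mek-1 (background 7.76% and 6.75%) and 17 higher and 1 lower in mlk-1 (background 3.29% and 2.55%). With the number alone they were 23 and 1 in mek-1 (background 7.68% and 6.7%) and 19 and 1 in mlk-1 (background 3.17% and 2.3%).

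The fasting effects of the strains did not differ past the threshold for any family gene (0 of 139 in limma, against 0.0754% of all probe sets). At an unadjusted p under 0.05 there were 2 of 139, fbxb-67 and fbxc-50, against 844 of all 22548 probe sets. The number past the adjusted threshold was 0 in all 22 alternatives as well, the blocks included (background 0.186% with the number and 0.222% with strain and number). The median effect in fbxb was 0.17 in mek-1 and 0.22 in mlk-1, and in fbxc it was 0.14 in both.

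**Figure D3:**
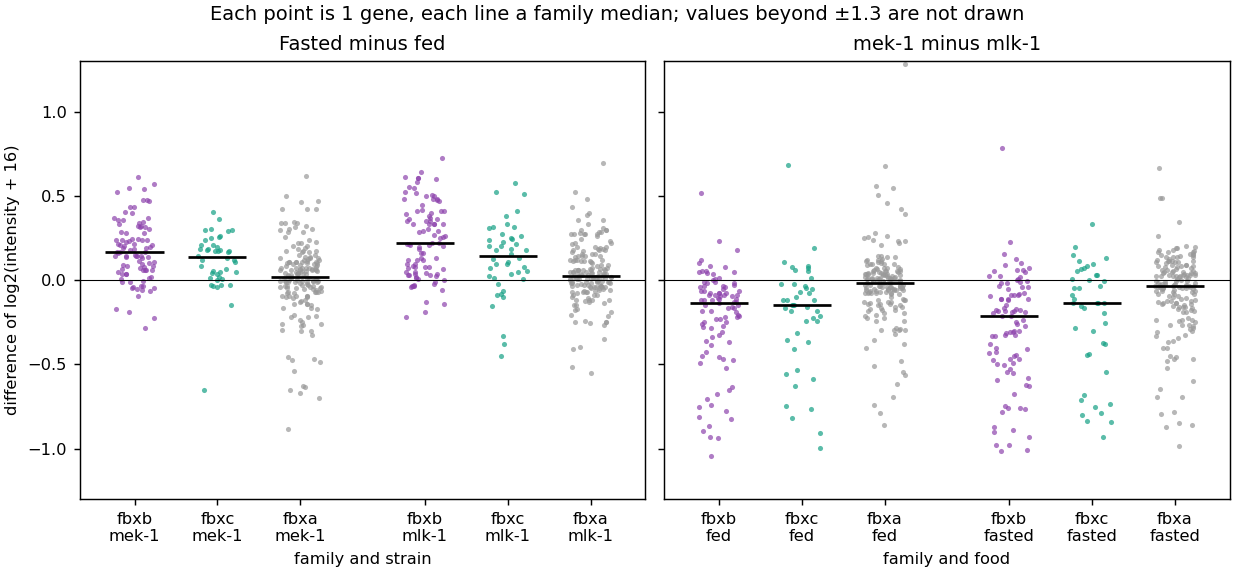
Differences of log2(intensity + 16) for each fbxb, fbxc and fbxa gene (points) with family medians (lines), on the left fasted minus fed in each strain and on the right mek-1 minus mlk-1 in each food state. The fbxb medians are 0.17 and 0.22 on the left and -0.14 and -0.21 on the right, while the fbxa medians stay within 0.04 of 0.

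The count of fasting calls rested on single arrays more than its direction did. Leaving out mlk-1 fasted 2 took the 25 fbxb calls to 3 and the 6 fbxc calls to 1. Leaving out mlk-1 fed 1 took them to 10 and 1, and mlk-1 fed 2 to 14 and 3. Fits without an mlk-1 array had a single array in that group, so their counts carry little weight. Leaving out mek-1 fasted 1 gave 14 and 3 (12.2% of the family genes, against 1.77% of all probe sets). Leaving out mek-1 fasted 2 gave 13 and 1 (10.1% against 2.06%). The fbxc calls also dropped to 2 when mlk-1 fasted 1 or mek-1 fed 2 was set aside, and to 3 when mek-1 fed 1 was. Over all probe sets the share called higher fell too, to 1.14% without mlk-1 fasted 2, where 2.88% of the family genes were called. The fbxb median stayed between 0.16 and 0.25 whichever array was left out. The array mlk-1 fasted 2 was also the highest for fbxb, its median deviation from each gene's own mean being 0.33 against 0.14 in mlk-1 fasted 1. Without both mek-1 arrays numbered 3, 28 fbxb and 5 fbxc genes were higher (background 5.88%) and 1 fbxc gene was lower.

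Between the strains, family genes were lower in mek-1 than in mlk-1 animals. In the mean over fed and fasted animals, 23 of 95 fbxb and 11 of 44 fbxc genes were lower in mek-1 and 0 were higher (24.2% and 25%), against 2.44% lower and 0.603% higher over all probe sets. The median difference was -0.19 in fbxb and -0.12 in fbxc, and 0.002 over all probe sets. At an unadjusted p under 0.05, 50 fbxb genes were lower and 1 higher, and 17 fbxc genes were lower and 1 higher. Of all 22548 probe sets, 1925 were lower and 1227 higher at that level. With the number as a block, 30 fbxb and 12 fbxc genes were lower and 1 fbxb gene was higher (background 3.65% lower and 3.01% higher). The fasting effect and this strain difference come from the same 10 arrays, so they are not independent of one another.

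The largest strain difference was that of fbxb-10. Its fed arrays read 41.1, 43.1 and 43.1 in mek-1 and 99.6 and 110 in mlk-1, and its fasted arrays 58.2, 73.1 and 58.0 in mek-1 and 136 and 149 in mlk-1. Every mlk-1 array lay above every mek-1 array, with a mean difference of -1.03 ± 0.07 (mek-1 minus mlk-1, adjusted p = 0.000189). In fasting it changed by 0.41 ± 0.07 (adjusted p = 0.00970).

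In fbxc-29 the fed arrays read 41.3, 45.5 and 45.7 in mek-1 and 102 and 106 in mlk-1. The fasted arrays read 51.4, 65.6 and 58.4 in mek-1 and 125 and 126 in mlk-1. The strains did not overlap, the difference being -0.96 ± 0.07 (adjusted p = 0.000167). Next by size were fbxb-1 (-0.94 ± 0.09), fbxb-3 (-0.91 ± 0.08), fbxb-102 (-0.89 ± 0.10) and fbxb-26 (-0.88 ± 0.11), with adjusted p from 0.000832 to 0.0037. These 4 genes and fbxb-10 passed the threshold for the mean strain difference in all 21 alternatives tried. The gene fbxc-29 passed in the 20 tried for it. Its probe set can hybridise to several transcripts, so it was absent where such probe sets were left out. For fbxb-13 the difference was -0.85 ± 0.07 (adjusted p = 0.000399).

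Some fbxc genes passed between strains and not with fasting. The arrays of fbxc-40 read 79.9, 74.1 and 74.0 fed and 93.3, 91.2 and 78.3 fasted in mek-1, and 154 and 159 fed and 164 and 153 fasted in mlk-1. The strain difference was -0.83 ± 0.06 (adjusted p = 0.000291) and the fasting change 0.09 ± 0.06 (adjusted p = 0.472). A like pair of values was seen in fbxc-24, at -0.83 ± 0.10 (adjusted p = 0.00335) between strains and 0.14 in fasting. Among the genes that rose with fasting, fbxc-7 differed by -0.31 ± 0.07 between strains (adjusted p = 0.0525) and fbxb-90 by -0.31 ± 0.08 (adjusted p = 0.0878), which are near the size of their fasting changes (0.39 and 0.43) and missed the threshold.

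Among the probe sets that stand for genes here, 0 passed the threshold in the opposite direction (background 0.603%). The differences of 13 fbxb and 11 fbxc genes nevertheless lay above 0. The dimmer probe set of fbxc-50, which is not counted, was higher in mek-1 at 0.28 ± 0.06 (adjusted p = 0.0355). In fbxb-97 every mek-1 array (62.9 to 128) lay above every mlk-1 array (47.6 to 54.1), at 0.65, but this was not past the threshold (adjusted p = 0.0874). All mlk-1 arrays lay above all mek-1 arrays for 19 fbxb and 8 fbxc genes (27 of 139, against 2.12% of all probe sets), and the reverse held for fbxb-97 alone (against 1.11%).

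The strain difference was present in each food state. In fed animals 7 fbxb and 4 fbxc genes were lower in mek-1 and 0 higher (background 0.47% lower and 0.133% higher). The largest were fbxb-10 (-1.04 ± 0.10, adjusted p = 0.00269), fbxc-29 (-0.997 ± 0.09, adjusted p = 0.00231) and fbxb-18 (-0.94 ± 0.14, adjusted p = 0.0221). In fasted animals 10 fbxb and 9 fbxc genes were lower and 0 higher (background 1.31% lower and 0.155% higher), led by fbxb-26 (-1.02 ± 0.15, adjusted p = 0.0205) and fbxb-10 (-1.01 ± 0.10, adjusted p = 0.00291). The 11 fed calls became 4 without mlk-1 fed 2, 5 without mek-1 fed 1, mek-1 fed 2, mek-1 fasted 1 or mlk-1 fed 1, and 7 without either mlk-1 fasted array. The 19 fasted calls became 0 without mlk-1 fasted 2, 4 without mek-1 fasted 1 and 5 without mek-1 fasted 3 or mlk-1 fasted 1. With the number as a block, 21 were lower and 1 higher in fed animals (background 1.07% and 0.825%), and 38 lower and 1 higher in fasted animals (background 2.83% and 1.75%). In the mean over food the 23 fbxb calls became 12 with mlk-1 fed 2 left out and 13 with mlk-1 fasted 2 left out, and the 11 fbxc calls 8 to 12 whichever array was left out. Without both mek-1 arrays numbered 3 they were 21 and 10 (background 2.15%).

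For 13 genes the 4 groups stood in 1 order with no overlap at any step, from mek-1 fed through mek-1 fasted and mlk-1 fed to mlk-1 fasted. That order was looked for after the values were seen and held for 0.328% of all probe sets. It held for 10 fbxb genes, fbxb-1, fbxb-3, fbxb-10, fbxb-13, fbxb-15, fbxb-35, fbxb-41, fbxb-68, fbxb-102 and fbxb-115, and for fbxc-28, fbxc-29 and fbxc-39. In fbxc-28 the intensities were 87.3, 86.4 and 84.8, then 114, 140 and 106, then 142 and 176, then 187 and 216. The nearest arrays of the mek-1 fasted and mlk-1 fed groups were close there (140 against 142), and the step between these groups was not tested.

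By array, the median deviation of fbxb genes from their own means was -0.18, -0.21 and -0.10 in mek-1 fed and -0.02, 0.03 and -0.04 in mek-1 fasted arrays. It was -0.02 and 0.07 in mlk-1 fed and 0.14 and 0.33 in mlk-1 fasted arrays. In fbxc the mek-1 fed arrays lay at -0.09 to -0.18 and the mlk-1 fasted arrays at 0.12 and 0.14, with the other arrays between -0.06 and 0.02. The mek-1 fasted and mlk-1 fed arrays thus overlapped in these medians for both families, and the extremes did not.

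How often a gene was called went with how bright its probe set was. Of the 27 family genes with a mean log2 level under 5.5, 1 rose with fasting, as did 8 of 48 from 5.5 to 6, 14 of 37 from 6 to 6.5 and 7 of 18 from 6.5 to 7. The share of all probe sets called higher in these ranges was 0.184%, 2.07%, 4.19% and 5.21%. At 7 and over, a range of 9 genes that are all fbxc, 1 rose (background 6.63%). Between strains the calls lower in mek-1 numbered 1 of 27, 5 of 48, 17 of 37, 10 of 18 and 1 of 9, against 0.23%, 1.39%, 3.96%, 4.64% and 3.14% of all probe sets. The ranges from 6.5 up hold under 20 genes each.

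**Figure D4:**
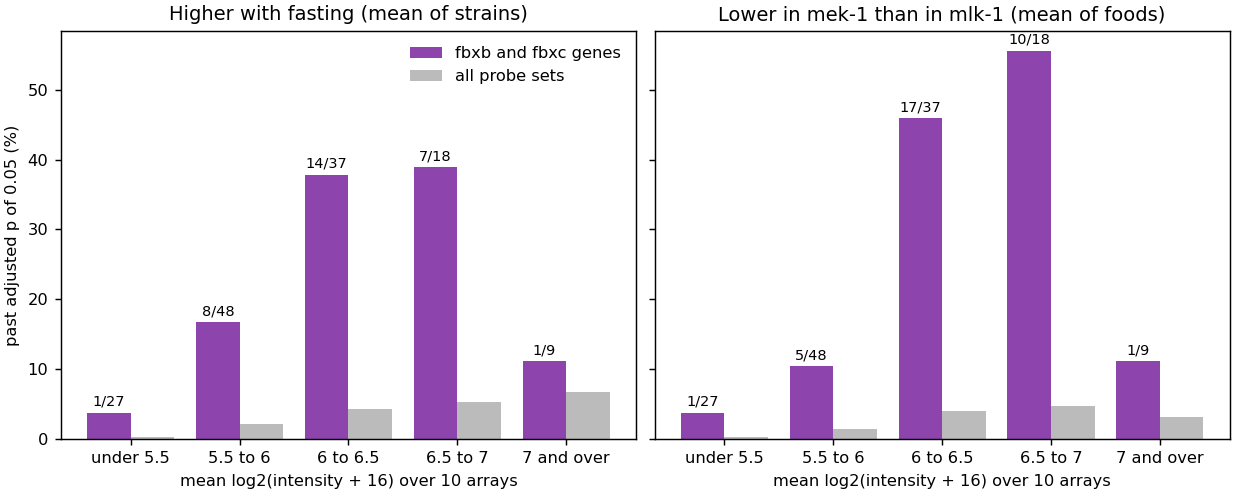
Share of fbxb and fbxc genes (purple, with counts) and of all probe sets (grey) past an adjusted p of 0.05, by mean log2 level over the 10 arrays, for higher with fasting (left) and lower in mek-1 (right). In the range from 6 to 6.5, 14 of 37 family genes rose and 17 of 37 were lower in mek-1, against 4.19% and 3.96% of all probe sets, and at 7 and over 1 of 9 was called in each.

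Most family genes lie beside other family genes. In the RefSeq table of assembly WBcel235, 127 of the 169 fbxb and fbxc genes fall in 30 runs in which at most 2 other protein-coding genes or pseudogenes separate one from the next. Chromosome II holds 63 fbxb and 40 fbxc genes. Of its measured genes, 14 of 51 fbxb and 6 of 38 fbxc rose in fasting, and 11 of each family were lower in mek-1. Outside chromosome II the fbxb genes that rose were 5 of 8 on III, 3 of 13 on V, 2 of 9 on IV, 1 of 11 on I and 0 of 3 on X. Without a block, all fbxc genes past the threshold for the mean fasting change or the mean strain difference lay on II. That chromosome holds 38 of the 44 measured fbxc genes. With the strain and number block fbxc-58, on IV, was past the threshold as lower with fasting.

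Within runs, genes past the threshold and genes not past it stood side by side, and some of the latter had changes as large as called genes. The longest run on II has 15 fbxc genes, from fbxc-24 to fbxc-6, all measured. Of these, 3 rose with fasting and 5 were lower in mek-1, and the strain difference ran from -0.96 in fbxc-29 to 0.09 in fbxc-41. The neighbours of fbxc-29, fbxc-33 and fbxc-30, stood at -0.11 and -0.08. In the run from fbxb-39 to fbxb-40, fbxb-41 and fbxb-40 were past the threshold in both comparisons (0.42 and 0.64 with fasting, -0.70 and -0.84 between strains) and fbxb-39 in neither (0.28 ± 0.12 and 0.03 ± 0.12). In 1 other run fbxb-54 was at 0.43 with fasting without passing (adjusted p = 0.101) while fbxb-49 passed at 0.25. On chromosome V, fbxb-1, fbxb-115 and fbxb-2 were lower in mek-1 (-0.94, -0.47 and -0.50), and fbxb-116 in the same run was at -0.03. Of the 4 fbxb genes in a run on chromosome III, fbxb-82, fbxb-83 and fbxb-84 rose (0.27, 0.37 and 0.44), and none of the 4 was past the threshold between strains. Duplicated neighbours can be nearly identical, and how far their probe sets share transcripts was not tested. The probe sets of fbxc-29, fbxb-40 and fbxb-41 are marked as shared, so their values may not be those of 1 gene. Without the probe sets marked as shared, 20 fbxb and 6 fbxc genes rose and 20 and 11 were lower in mek-1, of 124 genes left.

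**Figure D5:**
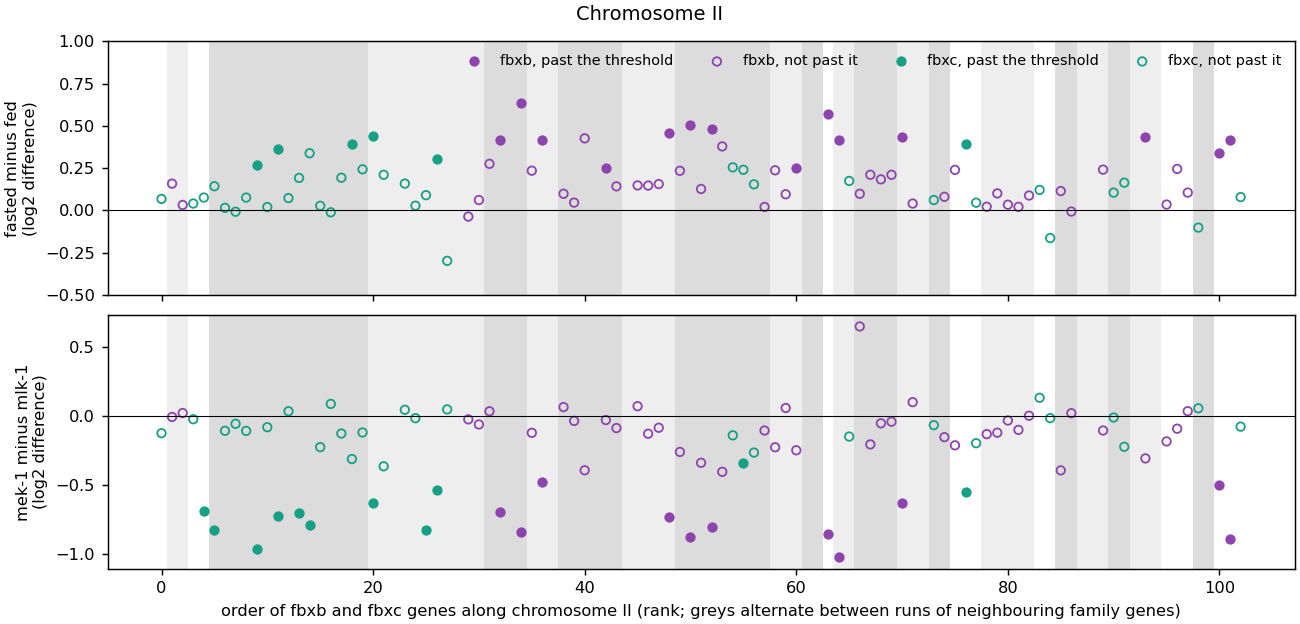
Mean fasting change (top) and mean strain difference (bottom) of the measured fbxb and fbxc genes in their order along chromosome II, filled where past the threshold, with alternating greys for runs of neighbouring family genes. Filled points between 0.25 and 0.64 (top) and between -0.34 and -1.03 (bottom) stand beside open points inside the same runs, and the open points reach 0.43 (top, fbxb-54) and -0.41 (bottom, fbxb-19).

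The remaining parts of the SCF pathway were read from lists of other genes. Of 171 fbxa genes, the sister family, 4 rose and 5 fell with fasting (2.34% and 2.92%, against 4.1% and 3.8% of all probe sets), with a median of 0.03. With the number as a block 13 rose and 13 fell (background 12.4% and 7.2%), and with strain and number 12 and 13 (background 12.6% and 7.36%). Between strains 10 fbxa genes were lower and 2 higher in mek-1 (5.85% and 1.17%, against 2.44% and 0.603% of all probe sets), with a median of -0.03. With the number as a block 13 were lower and 4 higher (background 3.65% and 3.01%). The values of the families are set side by side here, and no test of the difference between them was made. Of 27 measured Skp1-related, cullin and RBX genes, 9 rose and 0 fell with fasting, and 11 were lower and 0 higher in mek-1. All of these were skr genes.

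The adaptor genes skr-15 and skr-8 were, like many of the F-box genes, lowest in mek-1 fed and highest in mlk-1 fasted arrays. The skr-15 arrays read 386, 352 and 348 fed and 640, 584 and 531 fasted in mek-1, and 585 and 645 fed and 1058 and 1011 fasted in mlk-1. It changed by 0.70 ± 0.07 with fasting (adjusted p = 0.000588) and by -0.77 between strains (adjusted p = 0.000751). For skr-8 the values were 0.76 ± 0.14 (adjusted p = 0.0150) and -0.98 (adjusted p = 0.00860), and for skr-9 they were 0.72 ± 0.17 (adjusted p = 0.0322) and -1.04 (adjusted p = 0.0114). The skr-8 fasting call was lost without mlk-1 fed 1 (0.0586) or mlk-1 fasted 2 (0.0693), and the skr-9 call in 6 alternatives. The probe sets of skr-8 and skr-9 can hybridise to several transcripts, so these 2 genes are not independent readings. Those of skr-1 and skr-14 among the genes that rose are also of that kind. So are those of skr-13, skr-14 and skr-20 among the genes lower in mek-1. The counts of 9 and 11 may thus not be of that many separate genes. In skr-5 the rise of 0.76 ± 0.10 (adjusted p = 0.00202) came with 67.2 and 87.5 fed against 228 and 200.3 fasted in mlk-1, while mek-1 ran from 75.6 to 101 fed and from 97.0 to 105 fasted. The difference between these effects did not pass (adjusted p = 0.197). Other genes of the list did not pass with fasting, among them skr-4 (0.27 ± 0.07, adjusted p = 0.0609), skr-3 (-0.18 ± 0.14, adjusted p = 0.545) and cul-6 (-0.20 ± 0.12, adjusted p = 0.420).

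Of skr-1, cul-1 and rbx-1, which encode an adaptor, the cullin and the RING protein, skr-1 passed with fasting. The adaptor skr-1, which binds CUL-1, changed by 0.33 ± 0.08 with fasting (adjusted p = 0.0457, lost in 14 of 21 alternatives) and by 0.08 between strains (adjusted p = 0.789). The scaffold cul-1 stood at 0.24 ± 0.11 (adjusted p = 0.258, and 0.0210 with the strain and number block) and rbx-1 at 0.08 ± 0.08 (adjusted p = 0.647). Of 11 genes that regulate cullins (NEDD8 and its enzymes, CAND1 and the COP9 signalosome), 0 passed in either comparison in limma (3 higher with fasting and 0 between strains at an unadjusted p under 0.05, and 3 with the strain and number block). Of 10 F-box genes outside the large families, such as lin-23 and sel-10, only mfb-1, chosen after its value was seen, rose with fasting (0.58 ± 0.11, adjusted p = 0.0172). Between strains 0 of the 10 passed in limma (0 at an unadjusted p under 0.05, and 1 with the number as a block).

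Markers of tissues that whole adults contain moved in part with the same groups. Of 8 early embryo genes measured, 1 passed in each comparison, the zygotic gene sdz-28, at 0.72 ± 0.16 with fasting (adjusted p = 0.0309) and -0.94 between strains (adjusted p = 0.0188). It read 88.2 to 97.8 in mek-1 fed, 119 to 186 in mek-1 fasted, 137 and 220 in mlk-1 fed and 270 and 405 in mlk-1 fasted arrays. The summed intensity of the list ran from 530 to 578, 591 to 635, 638 to 744 and 798 to 962 in those groups. Without sdz-28 the other 7 genes summed to 442 to 480 in mek-1 fed, 440.5 to 490.3 in mek-1 fasted, 502 to 524 in mlk-1 fed and 528 to 557 in mlk-1 fasted arrays. The fed and fasted mek-1 arrays then overlapped, so the step between them in the whole sum rests on sdz-28. The level of end-3 stayed between 30.9 and 37.7 on all arrays. The 8 genes' median change was 0.02 with fasting and -0.11 between strains. The part of embryos in the family values was not tested. Of 10 germline and oocyte genes 0 passed in either comparison (0 also at an unadjusted p under 0.05, and 0 with the block), with medians of -0.002 and -0.01. Their summed intensity was 23245 to 32046 in mek-1 fed, 25172 to 33456 in mek-1 fasted, 27294 to 29903 in mlk-1 fed and 27480 to 28545 in mlk-1 fasted arrays.

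Genes of other tissue lists changed with fasting as well, where 3.8% of all probe sets were lower and 4.1% higher. Of 9 intestine genes 4 fell and 0 rose, with a summed intensity of 30081 to 35086 in mek-1 fed and 21996 to 25922 in mek-1 fasted arrays, and 34020 to 40302 in mlk-1 fed and 24408 to 24724 in mlk-1 fasted arrays. Of 7 body wall muscle genes 5 fell, and of 5 hypodermis genes 2 fell. The muscle sums were 5209 to 11927 in mek-1 fed, 2552 to 4210 in mek-1 fasted, 4284 to 4580 in mlk-1 fed and 2983 to 3563 in mlk-1 fasted arrays. The hypodermis sums in the same order were 8305 to 10732, 4729 to 8860, 6540 to 9677 and 4867 to 5186. Of 8 neuronal genes 2 rose, with sums of 3912 to 4734, 4312 to 5065, 3638 to 3897 and 4702 to 4861. Of 6 sperm genes 0 passed in either comparison in limma (0 with fasting and 1 between strains at an unadjusted p under 0.05, and 0 with the block), with sums of 514 to 1087, 494 to 989, 447 to 468 and 453 to 499. Between strains 0 genes of the intestine, muscle, hypodermis and neuron lists passed in limma (3, 4, 0 and 3 at an unadjusted p under 0.05, and 1, 2, 0 and 0 with the number as a block). The part of these tissues in the family values was not tested.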

How the data were processed

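The deposited values are intensity on a linear scale for each probe set, from 1-colour arrays of biotin-labelled RNA, per the labels. The summary and normalization steps are not given in the sources used here. The lowest intensity on each array is 16.0. After leaving out 77 control probe sets, 22548 were tested (20766 with 1 symbol, 887 with several, 895 with none). Group means of log2(intensity + 16) were fitted on all 10 arrays with limma 3.58.1 under R 4.3.3, the residual degrees of freedom being 6 and the prior ones 2.90, with two-sided tests and Benjamini-Hochberg adjustment over all probe sets in each of 7 contrasts. Figures used matplotlib 3.10.9.

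Members, lists and tests were chosen with earlier results of these data known. Named genes are members past the threshold by size (12 per family and direction for fasting, 6 per direction elsewhere), the 4 brightest and the 3 largest changes each way per family, and skr-1, cul-1, rbx-1 and up to 4 pathway genes each way. Names outside this rule were chosen after their values were seen.

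Fed and fasted arrays of equal number deviated together from their group means (r of 0.440, 0.675 and 0.573 in mek-1 and 0.352 in mlk-1). With 2 mlk-1 arrays a group, every pair there has an r of 0.352 or -0.352, so only its sign is informative. The labels state no pairing. The number was taken to pair samples from these values alone, and fits with it as a block are given. Pairing across strains was not examined, although the block by number alone assumes it. RefSeq names and gene order come from assembly WBcel235, and all 139 members matched. Alternatives covered normalization, the constant, dim and shared probe sets, the variance model, the block and each array left out.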

Additional observations from a re-analysis of the deposited data

How the results depend on the processing

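Calls between strains in the mean over food depended least on the processing, and calls within 1 strain or food state most. Leaving out each array in turn gave 3 to 28 fbxb and 1 to 5 fbxc genes higher with fasting, 0 to 1 of each lower, 12 to 23 fbxb and 8 to 12 fbxc genes lower in mek-1, and 0 to 1 fbxb genes higher in mek-1. Those ranges were 1 to 6 and 0 to 1 members for fasting in mek-1 and in mlk-1, 4 to 11 and 0 to 22 for the strains in fed and in fasted animals, and 0.16 to 0.25 and 0.10 to 0.14 for the fbxb and fbxc medians with fasting. Without both mek-1 arrays numbered 3, 1 fbxb gene was higher in mek-1, 1 fbxc gene was lower with fasting, and 2 members passed for fasting in mlk-1.

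The replicate block by number gave 38 fbxb and 11 fbxc genes higher and 2 fbxc lower with fasting, 1 fbxb higher in mek-1, and 24, 20, 22 and 39 members for fasting in mek-1, fasting in mlk-1, strains fed and strains fasted. The replicate block by strain and number gave 42 and 11 higher, 2 fbxc lower, and 24 and 18 members for fasting in mek-1 and mlk-1. Neither block made a call for the difference of fasting effects. Fitting the compared groups alone gave 2 and 0 members for fasting in mek-1 and mlk-1 and 0 and 11 for strains fed and fasted, with fewer samples behind the variance.

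The fbxb and fbxc medians with fasting were 0.29 and 0.16 with a constant of 1, 0.30 and 0.17 with none, 0.11 and 0.0622 with 64, and 0.29 and 0.15 without the lowest 30% of probe sets, which left 88 members. Fasting in mek-1 had 8 members past the threshold with a constant of 1, 8 with none and 2 with 64, where strains fed had 5. Median centring left 3 fbxc genes higher with fasting. A trended, robust variance gave 1 fbxb gene lower with fasting, 1 higher in mek-1 and 2 members for fasting in mlk-1. Without shared probe sets 1 fbxc gene was higher in mek-1. The value of fbxc-50 reversed without shared probe sets (0.32) and with the mean of its probe sets (0.0783), since its probe sets differ in sign. That of fbxb-4, at -0.01, ran from -0.044 to 0.0205 with an array left out, reversing without mek-1 fed 2 and without mek-1 fasted 1, and the cause was not tested in these or the other cases. Few arrays and dim signal limit every value here.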
